A study of Mus musculus with 8 samples.

Results

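Transcripts of ribosome biogenesis and of RNA polymerase I were described in irradiated small intestinal crypts of mice. The group comprised 62 of the 17634 genes in the deposited table: those whose symbols begin with Nop, Utp, Rrp or Exosc and a number or with Polr1 and a letter, together with 21 named factors (Ncl, Npm1, Npm3, Fbl, Dkc1, Gar1, Nhp2, Mrto4, Ppan, Bop1, Pes1, Wdr12, Wdr43, Imp3, Imp4, Nolc1, Nob1, Bysl, Tsr1, Gnl3 and Rrs1). The group was proposed with the difference between the 2 genotypes of this series already in view. The genotype values of the members are therefore given as a description, with no p-value.

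Crypts are the glands between the villi in which stem cells and dividing progenitors lie. The series held 8 libraries of total RNA from C57BL/6N mice, all taken 3 days after irradiation: 4 from wild-type mice and 4 from mice of the genotype miR-29ab1-/-, called knockout here. The labels do not give the radiation dose, the sex or age of the mice, or whether a library came from 1 animal. No unirradiated crypts were analysed here, so each difference is one between genotypes after irradiation.

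Ribosomes are built in the nucleolus. RNA polymerase I transcribes the long precursor of 3 of the ribosomal RNAs, small nucleolar ribonucleoproteins (snoRNPs) guide its modification, and assembly factors of the small and large subunits fold and cut it, with the RNA exosome trimming its ends and removing its spacers. The pathway takes a large share of the RNA and energy of dividing cells such as those of the crypt.

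The locus deleted in the knockout carries miR-29a and miR-29b, which share with miR-29c the seed, bases 2 to 8 of the mature microRNA. RefSeq sequences (GRCm38.p6) of the 3 mature microRNAs are shown because the knockout removes part of this family; capitals mark the seed.
miR-29a-3p (chr6:31062673-31062694, minus strand): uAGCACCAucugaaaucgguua
miR-29b-3p (chr6:31063025-31063047, minus strand, and chr1:195037091-195037113, plus strand): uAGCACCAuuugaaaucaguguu
miR-29c-3p (chr1:195037600-195037621, plus strand): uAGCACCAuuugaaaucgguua
Mature miR-29b thus has a second gene on chromosome 1, beside that of miR-29c. No microRNA gene of this family had a row in the expression table, so no row of the table checks the genotype of a library.

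Library totals ran from 9481201 to 16231099 counts, and 12908 genes passed the filter on low counts, all 62 members among them. Markers of crypt base stem cells (14 of 16 listed were in the table) and of Paneth cells (9 of 10) were detected, and so were all 20 markers of enterocytes, the absorptive cells of the villus. Replicate 4 of each genotype held 3 and 1 counts of 4 Y-linked genes, and the remaining 6 libraries held 1285 to 2061. The alternative fit with replicates 1 to 3 alone, used below, leaves out the libraries that all but lacked these counts. Knockout replicate 1 stood apart from the other knockout libraries in the members, as described below, and wild-type replicate 3 and knockout replicates 3 and 4 had the highest scores of fibroblast markers (1.22, 1.77 and 1.40, against −1.25 to −0.41 in the other 5, as mean log2 CPM minus each gene's mean). CPM are counts scaled to the effective size of each library, without regard to transcript length.

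Of the 62 members, 57 were called lower in knockout crypts and 0 higher by the quasi-likelihood test of edgeR with an adjusted p under 0.05. At an unadjusted p under 0.05, with DESeq2 and with limma the counts were again 57 and 0. The background was high: 23.1% of all tested genes were called lower and 24.2% higher, and 47.3% in either direction. Since the same contrast chose the members, nothing is read from their count beside that background. The median log2 fold (knockout over wild type) of the members was −0.89, with a range from −1.14 to 0.29, beside a median of 0.03 over all tested genes. All 4 knockout libraries lay below all 4 wild-type libraries in 53 members, as they did in 22.7% of all tested genes.

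The summed level of the members ran from 8166 to 10639 CPM in wild-type libraries and from 3844 to 5504 CPM in knockout libraries. As a share of all deposited counts, the members took 0.971% to 1.19% in wild type and 0.307% to 0.550% in the knockout. The lowest sum belonged to knockout replicate 1 and the highest to wild-type replicate 4, and the 2 genotypes did not overlap. RNA of whole crypts was measured, so fewer cells with active nucleoli and less of these transcripts per cell cannot be told apart.

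**Figure D1:**
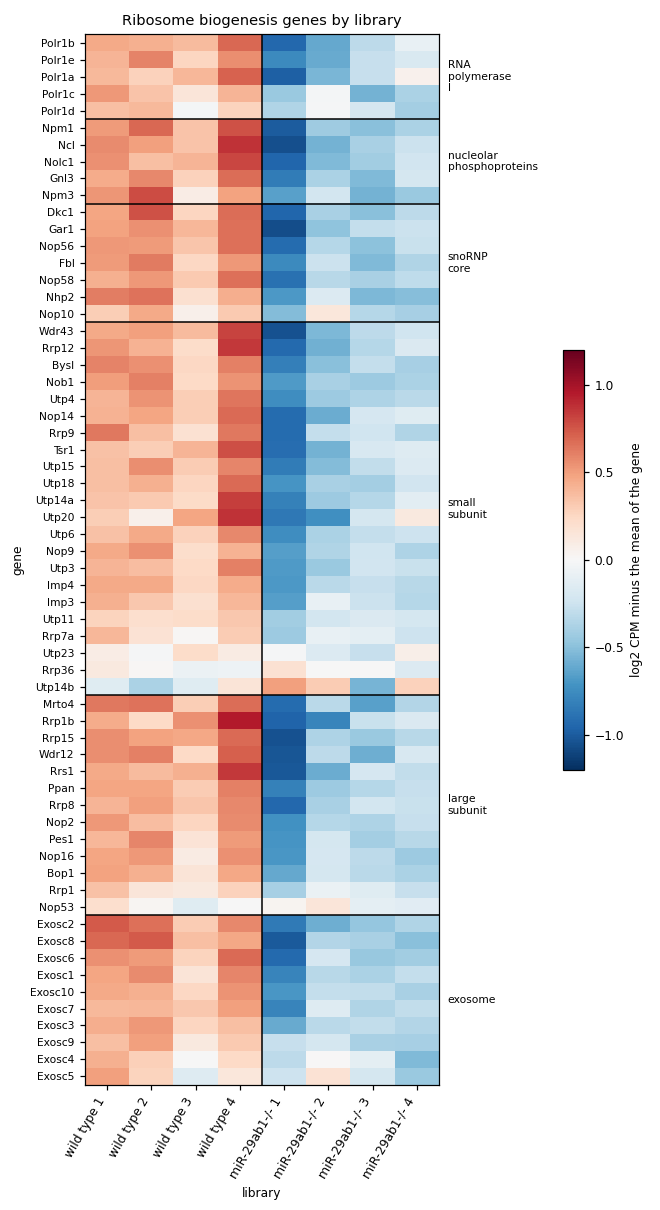
Level of each of the 62 members (rows, grouped by role) in each of the 8 libraries (columns), as log2 CPM minus the gene's mean over the 8 libraries; red is above and blue below that mean. Knockout replicate 1 is the lowest knockout library in 53 of the 57 rows called lower, and Nop53, Utp23, Rrp36 and Utp14b lack the split between genotypes.

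The first class codes for phosphoproteins of the nucleolus. Npm1 (nucleophosmin, a chaperone of histones and ribosomal proteins, NCBI gene 18148, chr11:33152287-33163206, minus strand, GRCm38) had 1636, 1859.6, 1459 and 1955 CPM in wild-type replicates 1 to 4 and 576, 854, 815 and 884 CPM in knockout replicates 1 to 4. Even the highest knockout library lay below the lowest wild-type library, and knockout replicate 1 was the lowest of all. Its mean was 1727 ± 224 CPM in wild type against 782 ± 140.4 CPM in the knockout (SD, n = 4 per group here and below), a log2 fold of −1.14 with a standard error (SE) of 0.18, the lowest of the 62.

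Ncl (nucleolin, which binds the ribosomal RNA precursor, NCBI gene 17975, chr1:86344719-86359400, minus strand) had 1787, 1699, 1532 and 2201 CPM in wild type against 582, 813, 920.2 and 1011 CPM in the knockout. Again no library of one genotype reached those of the other. The log2 fold was −1.12 (SE 0.20). Nolc1, a chaperone of snoRNPs between the nucleolus and Cajal bodies, and Gnl3 (nucleostemin, a nucleolar GTP-binding protein) were 2.07-fold and 1.96-fold lower in the knockout. Npm3, a smaller relative of Npm1, had the smallest difference of these 5 genes, with 108, 128, 79.1 and 104 CPM in wild type against 47.5, 63.9, 50.4 and 54.8 CPM in the knockout (log2 fold −0.95, SE 0.16). All 5 were called lower without overlap, with a median log2 fold of −1.05.

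Levels of different genes were compared per transcript length, as FPKM (fragments scaled to transcript length and library size). In wild type, Npm1 came first of the 62 with 1517 ± 174 FPKM. It was followed by Ncl with 339.8 ± 52.3, Nhp2 with 269 ± 24.1, Fbl with 243 ± 15.9, Polr1d with 215 ± 16.8 and Nop56 with 178 ± 15.0 FPKM. Npm1 stood far from the next gene, whereas from Ncl to Polr1d the mean ± SD of each gene overlapped that of its neighbour. At the other end, Utp23 had 5.63 ± 0.694 and Utp14b 1.76 ± 0.323 FPKM. Of the 7 core proteins of the snoRNPs, Nhp2, Fbl, Nop56, Nop10 and Nop58 ranked between 3 and 9 of the 62, and Gar1 and Dkc1 ranked 20 and 25.

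**Figure D2:**
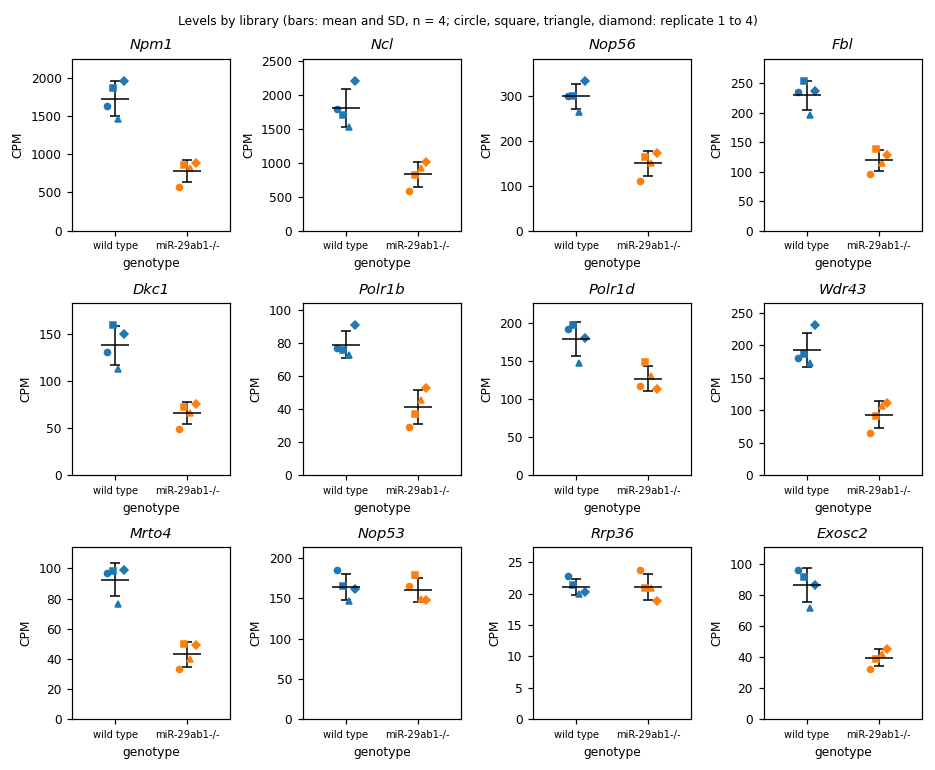
CPM of 12 members in each library (vertical axes start at 0; blue, wild type; orange, knockout; horizontal bars, mean; whiskers, SD over 4 libraries; marker shape, replicate number). The genotypes are separate in Npm1, Ncl, Nop56, Fbl, Dkc1, Polr1b, Wdr43, Mrto4 and Exosc2, overlap in 1 pair of libraries in Polr1d, and lie together in Nop53 and Rrp36.

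RNA polymerase I had 5 subunits among the members, and all 5 were called lower (median log2 fold −0.84). Polr1a codes for the largest catalytic subunit (NCBI gene 20019, chr6:71909053-71984935, plus strand). It had 105, 97.4, 106 and 131 CPM in wild type against 40.8, 55.2, 66.7 and 83.4 CPM in the knockout, a log2 fold of −0.84 (SE 0.21). The genotypes did not overlap, although knockout replicate 4 came near wild-type replicate 2. Polr1b, the second catalytic subunit (NCBI gene 20017, chr2:129100995-129126594, plus strand), had 76.8, 75.6, 72.9 and 90.7 CPM in wild type against 29.3, 36.7, 45.3 and 53.0 CPM in the knockout, the largest difference of the 5 at a log2 fold of −0.95 (SE 0.18).

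Polr1e, a subunit of the polymerase I heterodimer that aids initiation, was 1.87-fold lower in the knockout. Polr1c and Polr1d, which polymerase I shares with polymerase III, differed less, at log2 folds of −0.70 (SE 0.14) and −0.50 (SE 0.14). Polr1d had 192, 197, 148 and 181 CPM in wild type against 117, 149, 129.8 and 113 CPM in the knockout. Wild-type replicate 3 and knockout replicate 2 overlapped there, and the call on Polr1d was lost in replicates 1 to 3 alone.

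Of the 7 core proteins of the snoRNPs, all were called lower (median log2 fold −0.95). Box C/D snoRNPs, which place methyl groups on ribosomal RNA, contain fibrillarin, Nop56 and Nop58. Fbl (fibrillarin, the methyltransferase) had 235, 254, 195 and 236 CPM in wild type against 96.7, 138, 114 and 128 CPM in the knockout (log2 fold −0.95, SE 0.14). Nop56 had 302, 300.2, 266 and 334 CPM in wild type against 111, 166, 150.2 and 175 CPM in the knockout (log2 fold −0.999, SE 0.16), and Nop58 had 224, 238, 207 and 264 CPM against 89.8, 132, 127 and 135 CPM (log2 fold −0.95, SE 0.15). In all 3 genes the knockout libraries lay below the wild-type libraries, with replicate 1 the lowest.

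Box H/ACA snoRNPs, which convert uridines of ribosomal RNA to pseudouridines, contain Dkc1, Gar1, Nhp2 and Nop10. Dkc1 (dyskerin, the pseudouridine synthase) had 130.4, 159, 112 and 149.6 CPM in wild type against 48.6, 71.8, 66.2 and 75.5 CPM in the knockout, with no overlap and a log2 fold of −1.07 (SE 0.17). Gar1 and Nhp2 were 2.02-fold and 1.93-fold lower. Nop10, the smallest protein of the complex, had 91.7, 102, 77.6 and 92.9 CPM in wild type against 52.1, 81.7, 58.7 and 56.7 CPM in the knockout. Its log2 fold was −0.55 (SE 0.16), knockout replicate 2 overlapped the wild-type range, and the call was lost in replicates 1 to 3 alone, without wild-type replicate 2 and without the 3 libraries richest in fibroblast markers.

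The largest class, 22 factors of the small subunit, had 19 called lower, 0 higher and a median log2 fold of −0.84. Wdr43, a component of the complex that first binds the ribosomal RNA precursor, had the lowest fold of the class. It had 181, 186, 172 and 231 CPM in wild type against 64.0, 90.7, 106 and 112 CPM in the knockout, a log2 fold of −1.05 (SE 0.18) with no overlap. Most of the class lay close together: 16 of the 22, Wdr43 and factors of both early and late steps among them, had log2 folds between −1.05 and −0.80. Utp11 and Rrp7a differed less, at −0.51 (SE 0.09) and −0.45 (SE 0.12), and the call on Rrp7a was lost in replicates 1 to 3 alone. Utp20, a large scaffold protein, was called lower with overlapping genotypes (87.2 to 152 CPM in wild type, 46.2 to 91.0 CPM in the knockout), and not without wild-type replicate 4.

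The small subunit factors that were not called were Utp23, Rrp36 and Utp14b. Rrp36, a factor of the early cleavages of the precursor whose library values are given because it was near 0, had 22.8, 21.3, 20.0 and 20.3 CPM in wild type against 23.9, 20.9, 20.9 and 18.8 CPM in the knockout, with a log2 fold of 0.00 (SE 0.11). Its mean was 21.1 CPM in both genotypes, and its sign turned with the scaling of the libraries. Utp23, a nuclease-like factor of the same steps, had 13.2 to 15.5 CPM in wild type against 10.97 to 13.9 CPM in the knockout (log2 fold −0.19, SE 0.13). It was called lower when libraries were scaled by total counts alone. Utp14b, a retrogene copy of Utp14a, was the sole member with a positive log2 fold above 0.1, at 5.57, 4.75, 5.56 and 6.88 CPM in wild type against 8.67, 7.60, 4.19 and 7.48 CPM in the knockout (log2 fold 0.29, SE 0.25). The genotypes overlapped, and the sign turned to −0.01 when libraries were scaled by total counts alone. Reads of Utp14b could be shared with Utp14a or with Acsl3, which has exon bases in common with it on the same strand, so its value is uncertain. Utp14a itself was 1.81-fold lower.

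Among 13 factors of the large subunit, 12 were called lower and 0 higher, with a median log2 fold of −0.88. Mrto4, which holds the place of a stalk protein on the maturing subunit, had 96.9, 98.1, 76.4 and 99.3 CPM in wild type against 33.0, 50.03, 39.7 and 48.9 CPM in the knockout. Its log2 fold of −1.11 (SE 0.16) was the lowest of the class, with no overlap. The 3 proteins of the PeBoW complex, which is needed to process the RNAs of the large subunit, were 2.05-fold (Wdr12), 1.77-fold (Pes1) and 1.70-fold (Bop1) lower. Nop2, a methyltransferase of the large subunit RNA, was 1.81-fold lower, and Rrp1 1.36-fold lower, a call lost in replicates 1 to 3 alone and without the 3 libraries richest in fibroblast markers.

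Nop53, which brings the exosome to the precursor of the large subunit, was the one member of this class that was not called. It had 186, 165, 147 and 161 CPM in wild type against 165, 179.6, 149 and 148 CPM in the knockout. The ranges lay on top of each other, with a log2 fold of −0.04 (SE 0.12). The sign of this small value turned without wild-type replicate 1 and without the 3 libraries richest in fibroblast markers. With libraries scaled by total counts alone, Nop53 was called lower, at a log2 fold of −0.31.

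The RNA exosome, which degrades and trims RNA from its 3′ end, had 10 subunits among the members, of which 9 were called lower and 0 higher (median log2 fold −0.81). Exosc2, a protein of its RNA-binding cap, had 96.8, 92.0, 71.8 and 86.7 CPM in wild type against 32.3, 38.7, 42.2 and 45.3 CPM in the knockout, with no overlap and a log2 fold of −1.13 (SE 0.14). The other cap proteins, Exosc1 and Exosc3, were 1.85-fold and 1.72-fold lower. Exosc10, a nuclease of the nuclear exosome, had 89.1, 87.1, 76.9 and 94.4 CPM in wild type against 40.1, 53.3, 52.9 and 49.6 CPM in the knockout (log2 fold −0.83, SE 0.12), again without overlap.

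The 6 proteins of the exosome ring did not share one fold. Exosc8, Exosc6 and Exosc7 were 2.16-fold, 1.98-fold and 1.72-fold lower, and Exosc9 was 1.56-fold lower. Exosc4 was 1.38-fold lower with overlapping genotypes, and its call was lost in 5 alternatives: replicates 1 to 3 alone, without wild-type replicate 1, 2 or 4, and without the 3 libraries richest in fibroblast markers. Exosc5 was not called: it had 47.9, 41.0, 30.5 and 37.3 CPM in wild type against 28.7, 38.5, 29.5 and 24.98 CPM in the knockout, with a log2 fold of −0.36 (SE 0.17). It was called lower in 3 of the alternatives run, namely with upper-quartile factors, with total counts alone and without knockout replicate 2.

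**Figure D3:**
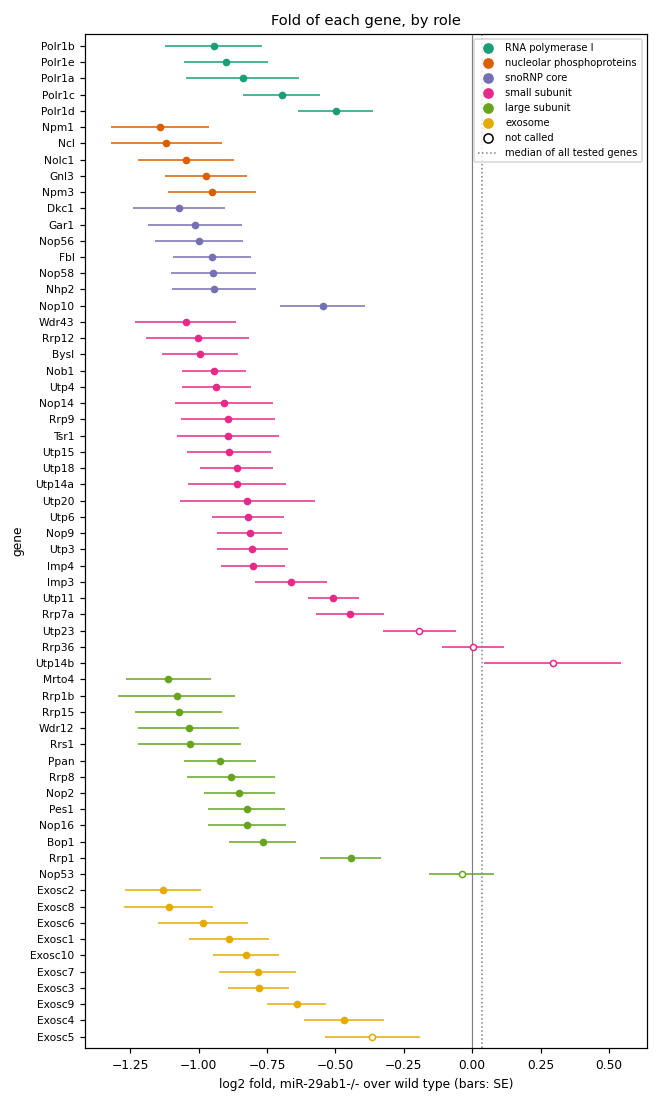
Log2 fold (knockout over wild type) of each of the 62 members with its SE, coloured by role; filled points were called lower and open points were not called, and the dotted line is the median of all tested genes (0.03). Between −1.14 and −0.64 lie 51 points, and the 5 open points, with Polr1d, Nop10, Utp11, Rrp7a, Rrp1 and Exosc4, lie to the right of them.

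The rest of the pathway was described from a list of 122 further biogenesis genes, also drawn up with earlier results of these data known. The edgeR test called 100 of them lower (82%) and 3 higher (2.46%), with a median log2 fold of −0.74. Of all tested genes, 23.1% were called lower and 24.2% higher. With the replicate number as a block, the counts in the list were 107 and 4. Calls over all tested genes, in either direction, also rose with the block, from 6105 to 7226. Among 15 other genes of RNA polymerase I, 9 were called lower. Cd3eap, a further subunit of the enzyme, fell by 1.10 on the log2 scale (SE 0.17). Rrn3, the factor that brings the polymerase to its promoter, fell from 112 ± 11.4 to 68.3 ± 6.53 CPM (edgeR adjusted p = 0.0016), and Ubtf, which keeps ribosomal DNA open for transcription, fell less, from 148 ± 10.8 to 119 ± 6.99 CPM (edgeR adjusted p = 0.029). The genotypes did not overlap in either gene. Taf1c, of the promoter selectivity factor, had a log2 fold of −0.15 (SE 0.17) and was not called.

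Of 10 other snoRNP genes, 9 were called lower, with Ruvbl1, an ATPase of snoRNP assembly, 2.18-fold lower and Wrap53, a Cajal body protein, not called at −0.24 (SE 0.13). Of 36 other small subunit genes, 33 were called lower, led by the 18S methyltransferase Dimt1 (2.23-fold). Of 49 other large subunit genes, 41 were called lower, led by Lyar (2.19-fold), a nucleolar zinc finger protein. Of 12 other genes of the exosome and of RNA decay, 8 were called lower, led by Dis3, another exosome nuclease (2.04-fold).

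The 3 genes that rose were Riok3, Sbds and Tent4b. Each had the highest fold of its list in this contrast, so its adjusted p is given as a description. Riok3, a kinase found on late small subunit precursors, had 85.1, 93.4, 70.5 and 71.0 CPM in wild type against 196, 140.3, 109.9 and 141 CPM in the knockout, with an edgeR adjusted p = 0.0045. Sbds, which removes Eif6 from the nearly finished large subunit in the cytoplasm, had 74.4, 73.4, 57.1 and 68.4 CPM in wild type against 131, 111, 78.4 and 96.4 CPM in the knockout, with an edgeR adjusted p = 0.014. Tent4b, a poly(A) polymerase that marks RNA for the exosome, was 1.28-fold higher (edgeR adjusted p = 0.039). In all 3 genes the knockout libraries lay above the wild-type libraries. The count of 3 dropped to 1 in replicates 1 to 3 alone, without knockout replicate 1 and without knockout replicate 2. Eif6 itself, named after its values were seen, had a log2 fold of 0.41 (SE 0.23) with overlapping genotypes and was not called. It was called with the replicate number as a block (edgeR adjusted p = 0.012). That setting also called more of all tested genes, so nothing is read from the call on Eif6.

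Polymerases and ribosomal proteins gave a scale for these values. Of 8 genes listed as subunits of RNA polymerase II, 5 were called lower (median log2 fold −0.52). Of 11 subunits of RNA polymerase III, 9 were called lower and 1 higher (median −0.58). Subunits shared with polymerase I are not in these polymerase lists. Polr1c and Polr1d were counted among the members, and Polr2e, Polr2f, Polr2h, Polr2k and Polr2l among the other genes of polymerase I. Among cytosolic ribosomal proteins, the end users of the pathway, 54 of 77 tested were called lower (median −0.50), and among mitochondrial ribosomal proteins 54 of 78 were called lower (median −0.52). The lower quartile of each of these 4 lists lay above the upper quartile of the 62 members (−0.78). The lists differ in level and length, the members were chosen on this contrast, and the difference between lists was not tested.

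**Figure D4:**
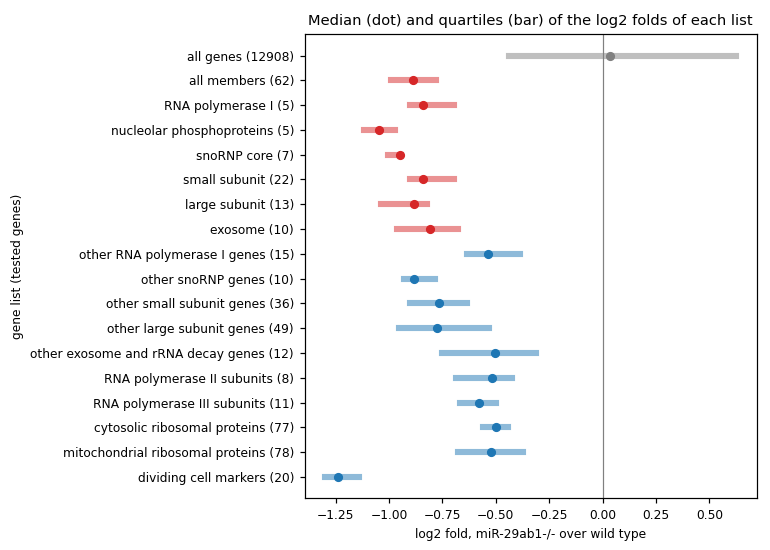
Median (dot) and quartiles (bar) of the log2 folds of the members, of their 6 classes (red), of further lists of genes (blue) and of all 12908 tested genes (grey), with the number of tested genes in brackets. The member classes have medians from −1.05 to −0.81, the polymerase II, polymerase III and ribosomal protein lists from −0.58 to −0.50, and the markers of dividing cells −1.24.

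Myc, a transcription factor known to drive many genes of ribosome biogenesis, had 189.9, 186, 181 and 247 CPM in wild type against 98.6, 123, 139.7 and 141 CPM in the knockout. The genotypes did not overlap, and Myc was 1.603-fold lower (edgeR adjusted p = 0.0070). Of 12 genes of Myc, its relatives and its partners, 2 were called lower (Myc and Mycl) and 5 higher. The 5 that rose, named after their values were seen, were Max, the partner of Myc (log2 fold 1.18, SE 0.22), Mlx (0.71, SE 0.20), and Mxd1 (2.09, SE 0.41), Mxi1 (1.12, SE 0.17) and Mxd4 (1.00, SE 0.16), which compete with Myc for Max.

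Markers of dividing cells differed between genotypes in the same direction as the members, and markers of absorptive cells in the opposite direction. All 20 markers of dividing cells were called lower, with a summed level of 3183 to 3724 CPM in wild type against 1087 to 1756 CPM in the knockout and a median log2 fold of −1.24. All 20 enterocyte markers were called higher, from 2788 to 13871 CPM in wild type to 33221 to 109080 CPM in the knockout. Of 14 tested stem cell markers 7 were called lower, and of 8 goblet markers 6 were called higher. Of 9 Paneth markers, edgeR and limma called 0 in either direction, DESeq2 called 2 higher, and 2 were higher at an unadjusted p under 0.05 of edgeR. Of 10 tuft and enteroendocrine markers 8 were called higher, and of 10 fibroblast markers 1. The 10 tested immune markers and 4 muscle and endothelial markers had 0 calls by edgeR, DESeq2 or limma and 0 at an unadjusted p under 0.05. Immune markers summed to 89.9 to 611 CPM in wild type against 436 to 1316 CPM in knockout libraries, and fibroblast markers to 51.2 to 269 CPM against 52.2 to 359.7 CPM. None of the markers in these lists was at 0 in all libraries. The part of these shifts in the levels of the members was not tested.

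**Figure D5:**
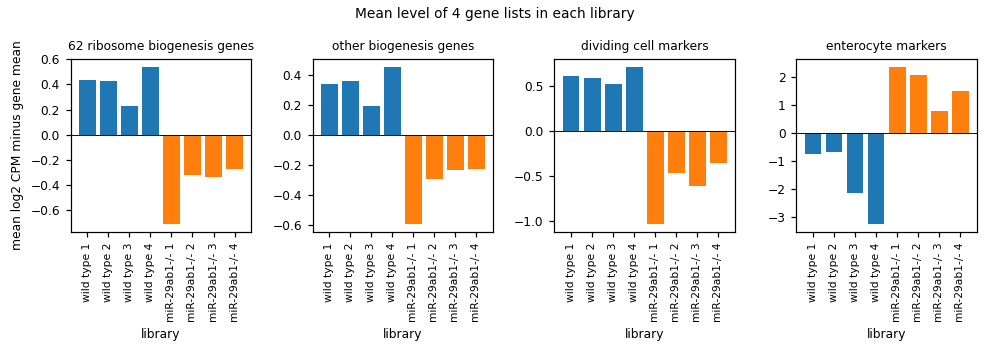
Mean over the genes of a list of log2 CPM minus each gene's mean, in each library (blue, wild type; orange, knockout), for the 62 members, the other biogenesis genes, 20 markers of dividing cells and 20 enterocyte markers; the vertical scales differ. The members run from 0.23 to 0.54 in wild-type libraries and −0.71 to −0.27 in those of the knockout, and knockout replicate 1 is lowest in the first 3 panels and highest in the panel of enterocyte markers.

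Libraries of one genotype differed among themselves, and the rule made no use of that variation. The mean score of the members was 0.44, 0.43, 0.23 and 0.54 in wild-type replicates 1 to 4 and −0.71, −0.32, −0.34 and −0.27 in knockout replicates 1 to 4. Knockout replicate 1 also had the lowest score of dividing cell markers (−1.03) and the highest of enterocyte markers (2.39). Wild-type replicate 4 had the highest member score, the highest score of dividing cell markers (0.72) and the lowest of enterocyte markers (−3.24). Scores of the members and of dividing cell markers ranked all libraries in the same order. Enterocyte scores did not keep to the reverse of that order, and the link between these scores was not tested. Wild-type replicate 3 had the lowest wild-type scores of members (0.23) and of dividing cell markers (0.52), with an enterocyte score of −2.12. Knockout replicates 2 and 3 had similar member scores, with enterocyte scores of 2.08 and 0.79. Without knockout replicate 1, 57 members were again called lower, with a median log2 fold of −0.82.

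To describe how the members varied together, each gene's deviations from its genotype mean were correlated over the 8 libraries. The median Pearson r over pairs of members was 0.72, with quartiles of 0.40 and 0.86, beside a median of 0.01 over all pairs of tested genes and 0.05 over pairs of a member with another gene. All pairs share the same 8 libraries and their scaling, so these are descriptions. Other biogenesis genes and dividing cell markers varied alongside the members. In knockout replicate 1 their mean deviations were −0.26 and −0.42, beside −0.30 for the members. Signs differed from the members only for dividing cell markers in wild-type replicate 2 (−0.02 beside 0.02). Pairwise r within those lists was not computed. Without knockout replicate 1 the median over member pairs was 0.50, beside 0.01 over all pairs, and after removing replicate differences it was 0.88, beside 0.04. In the latter setting the deviations of the wild-type and the knockout library of a number mirror each other. The 0.88 thus describes how the difference between genotypes varied over replicate numbers, not variation within a genotype.

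By class, median r was 0.84 within the snoRNP core, 0.82 within the nucleolar phosphoproteins, 0.76 within each of the small and large subunit classes and 0.63 within the exosome. Within the 5 subunits of RNA polymerase I it was 0.05, with quartiles of −0.05 and 0.79. Polr1b, Polr1e and Polr1a had median r of 0.74, 0.72 and 0.68 with the other members, against 0.37 and 0.45 for Polr1c and Polr1d. The difference between classes was not tested. Ppan, a factor of the large subunit, had the highest median r with the other members (0.88), followed by Utp6 (0.87), Nop58 (0.85) and Ncl (0.85). Rrp36 (−0.54), Utp23 (−0.32), Utp14b (−0.23) and Nop53 (0.08) had the lowest values. These are 4 of the 5 members that were not called between genotypes.

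Promoters of the members, from 250 bases before to 50 bases after the start of transcription in RefSeq (GRCm38.p6), were searched on both strands for 5 motifs named with the lists; 51 of the 62 members had a promoter in the table. The E-box CACGTG, the sequence that Myc and Max bind, was present in 11 of 51 members (21.6%, 95% Clopper-Pearson interval 11.3% to 35.3%), in 11.5% of 10298 promoters of tested genes and in 8.09% of all 27025 promoters. Stretches around the motif are shown for 8 of these members because this was the motif with the highest share; they read along the gene, and capitals mark the E-box.
Nop2 (chr6:125131793-125131858, plus strand): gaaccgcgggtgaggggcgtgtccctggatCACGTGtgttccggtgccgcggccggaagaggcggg
Utp18 (chr11:93885767-93885816, minus strand): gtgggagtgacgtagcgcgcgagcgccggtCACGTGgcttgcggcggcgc
Pes1 (chr11:3963967-3963992, plus strand): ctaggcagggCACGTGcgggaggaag
Wdr43 (chr17:71616222-71616247, plus strand): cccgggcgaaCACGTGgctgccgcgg
Tsr1 (chr11:74898094-74898119, plus strand): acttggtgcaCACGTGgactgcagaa
Imp4 (chr1:34439698-34439723, plus strand): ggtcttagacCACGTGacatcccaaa
Utp14b (chr1:78658367-78658392, plus strand): cgggcgcgggCACGTGggtggggtcg
Exosc5 (chr7:25659099-25659124, plus strand): aacgctgagcCACGTGctagggccaa
In Nop2 and Utp18 the motif began 60 and 20 bases before the start, and in Wdr43 18 bases after it. The last 2 sequences belong to members that were not called.

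The members with an E-box in this window had a median log2 fold of −0.83 (9 of 11 called lower), and the 40 without it −0.91 (39 of 40 called lower). These medians come from the contrast that chose the members, and nothing is read from their difference. The ETS motif CCGGAAGT was present in 9 of 51 members (17.6%, interval 8.40% to 30.9%), in 8.91% of promoters of tested genes and in 4.31% of all promoters. Examples with 1 or 2 copies near the start are shown for the shared polymerase subunit Polr1c, the H/ACA proteins Gar1 and Nhp2 and the processome factor Utp4, with the motif or its reverse complement in capitals.
Polr1c (chr17:46248070-46248097, minus strand): cacttgacgtCCGGAAGTgaaggacgtg
Gar1 (chr3:129831423-129831450, minus strand): gcgccgccacACTTCCGGaaacgtcgcg
Nhp2 (chr11:51619740-51619767, plus strand): acttgaaaacCCGGAAGTgatgtcggag
Utp4, first copy (chr8:106893586-106893613, plus strand): ttgcctgcgcACTTCCGGcctcgcgccg
Utp4, second copy (chr8:106893610-106893637, plus strand): gccgcggagtACTTCCGGgacggcgctg
The other motifs, those of ZBTB33, NRF1 and YY1 (the last as AAGATGGC), were present in 1, 1 and 2 of the 51 members, beside 1.12%, 2.20% and 5.19% of promoters of tested genes. The intervals of all 5 shares cover counting error over genes alone, and a match shows the letters, not a bound factor.

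A match to the miR-29 seed (TGGTGCT) was present in the longest annotated 3′ UTR (GENCODE M21 on GRCm38) of 5 of the 62 members (8.07%, interval 2.67% to 17.8%), beside 15.5% of 12648 tested genes. The 3′ UTRs of the members were shorter, with a median of 761 bases against 1164. Those of Ncl, Polr1a, Rrp12, Utp14b and Utp23 held a match, and Ncl held 2, of which the first is followed by an A. The sites of Ncl and Polr1a are shown with the match in capitals, as examples from a nucleolar protein and a polymerase subunit described above.
Ncl, first site (chr1:86349140-86349161, minus strand): ttcaactcTGGTGCTagcagac
Ncl, second site (chr1:86346056-86346077, minus strand): tatttttaTGGTGCTtggaatt
Polr1a (chr6:71981709-71981730, plus strand): gccctgccTGGTGCTgctttct
Ncl, Polr1a and Rrp12 were lower in the knockout (log2 folds −1.12, −0.84 and −1.004), and Utp23 and Utp14b were not called.

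Several members are host genes, with genes of small nucleolar RNAs lying inside them on the same strand. In the annotation, 9 of the 62 members held at least 1 such RNA (14.5%, interval 6.86% to 25.8%), beside 1.77% of 12746 tested genes, and the 9 hosts carried 24 in all. Nop56 held 5, Nop58 4, and Wdr43, Ncl and Gnl3 held 3 each, with 2 in Ppan and in Tsr1 and 1 in Dkc1 and in Nop53. Box C/D RNAs such as Snord57 and Snord110 in Nop56 thus lie in the gene of a protein of their own particle. Of the 9 hosts, 8 were called lower and Nop53 was not, where 23.1% of all tested genes were called lower. The same contrast chose the members, and nothing is read from this count. The small RNAs themselves were not analysed here.

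The members lay on 17 chromosomes. Exon bases were shared with another protein-coding gene by 21 of them, on the opposite strand in 19 (Exosc9 with the cyclin gene Ccna2 among them) and on the same strand in Exosc6 (with Aars) and Utp14b. Whether reads were counted by strand is not given in the sources used here, so values of these 21 could hold reads of the partner gene. Of the 41 members without such an overlap, 38 were called lower, with a median log2 fold of −0.89. Of all tested genes, 23.1% were called lower. The same contrast chose the members, so this count cannot show whether shared reads changed the values.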

How the data were processed

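RNA from small intestinal crypts, extracted with TRIzol, was sequenced in 4 wild-type and 4 miR-29ab1-/- libraries, each assigned by its label. The submitters' processing notes name HISAT2 and DESeq2, with neither role nor version; a counter, genome build, annotation and strand setting were not given in the sources used here. An estimated count of reads per gene and library was deposited by the authors, per the file headers, of which 8.04% to 9.18% were not whole; each was rounded here. A second set of deposited columns, of no stated unit, was taken to be FPKM, since its ratio to the count followed the library totals to within 0.852%.

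All genes were fitted in R 4.3.3 with edgeR 4.0.16 (filterByExpr, scaling by TMM, glmQLFit and glmQLFTest on genotype), with Benjamini-Hochberg adjustment over 12908 genes and a threshold of 0.05, after the script was tested on simulated data. CPM use the TMM scaling, and the SE of a log2 fold is its size over the square root of F. No label says that libraries came from separate animals, so a p-value covers the spread between these libraries, which may be technical in part. Replicate 4 of each genotype all but lacked Y-linked counts, so it differed from replicates 1 to 3 in its mice. Among replicates 1 to 3 the spread may be technical. Limma 3.58.1 and DESeq2 1.42.0 served as alternatives, with other scalings, filters, the replicate block and left-out libraries. Deviations of same-numbered libraries correlated at 0.31 to 0.52 for all 4 numbers, and those of differently numbered libraries at −0.48 to 0.45 (highest for wild-type replicate 2 with knockout replicate 1, above its 0.31 with its own number). As every same-numbered value was above 0.1, the numbers were treated as pairs in the alternative with a block; genotype was the sole term otherwise. What a number stands for is not stated.

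The members and gene lists were chosen with earlier results of these data known. After values were seen, Mpp6 was removed from the lists, since that symbol belongs here to another gene, and Sbds and Kri1 were moved to other lists. Members named with each library's value were a fixed set (Polr1a, Polr1b, Ncl, Npm1, Fbl, Nop56, Nop58, Dkc1) and, per class, the lowest and highest fold and the highest CPM; polymerase I and exosome subunits and members of opposite sign were named with a fold. Rrp36, of the latter, is also given by library, a choice made after its values were seen. Of each other list, the lowest and highest fold were named, with Myc, Rrn3 and Ubtf. All other genes named were chosen after their values were seen. Intervals are 95% Clopper-Pearson and cover counting error only.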

Additional observations from a re-analysis of the deposited data

Results flagged for a closer look

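Of 36 groups of 4 libraries examined (the 18 members that the naming rule gives with each library's value, in both genotypes), 2 held a library far from the other 3, where chance alone gives about 1 in 20. Nop58 had 89.8 CPM in knockout replicate 1, while the other knockout libraries held 127 to 135 CPM. Mrto4 had 76.4 CPM in wild-type replicate 3, while the other wild-type libraries held 96.9 to 99.3 CPM.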

How the results depend on the processing

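All 57 calls on members were kept with size factors of DESeq2, upper-quartile factors, total counts alone, no low-count filter, a mean of at least 50 counts, DESeq2, limma on log2(CPM + 1) and the replicate block. The replicate block gave 57 members lower and changed no call on a member. With total counts alone, 60 members were called lower, gaining Utp23, Exosc5 and Nop53 (log2 fold of Nop53 −0.3091). The median log2 fold was then −0.23 over all genes and −1.13 over the members, and 65.8% of all calls were lower, against 48.7% with TMM. Replicates 1 to 3 alone gave 52, losing Rrp7a, Nop10, Polr1d, Exosc4 and Rrp1; leaving out 1 library in turn gave 55 to 58, losing Exosc4, Nop10 or Utp20. Without the 3 libraries richest in fibroblast markers, a setting chosen after seeing the data, 54 were called lower. Of 738 values of 41 named genes under 18 alternatives, 692 kept direction and call, 28 lost and 5 gained the call and 13 reversed. Rrp36, at 0.00, reversed with upper-quartile factors (−0.0915), total counts (−0.2695), no filter (−0.0325), limma (−0.0015), the replicate block (−0.0014) and replicates 1 to 3 alone (−0.0013), and ran from −0.1038 to 0.0373 with 1 library left out. Nop53 ran from −0.1543 to 0.0203 with 1 library left out, reversing without wild-type replicate 1, and was 0.0256 without the fibroblast-rich libraries. Utp14b reversed with total counts (−0.0082). Other biogenesis genes called higher fell from 3 to 1 in replicates 1 to 3 alone and without knockout replicate 1 or 2. The median correlation of member pairs within genotype moved from 0.72 to 0.50 without knockout replicate 1, a setting also chosen after seeing the data. After the replicate block it was 0.88, a value that describes the genotype difference over replicate numbers and not variation within a genotype. In each case the cause was not tested. Depth limited none of the members to a few counts; Utp14b had the lowest level.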
